A study of Rattus norvegicus with 12 samples.

Results

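The genes described here are alpha-2-macroglobulin (A2m) and 4 genes of the plasminogen activator system, namely Serpine2, Plat, Plau and Plaur. They were taken as the array rows annotated with exactly 1 of these symbols, which gave 5 of the 18166 genes measured, with 1 array row for each. The set was chosen by the measured day 7 against day 2 difference of A2m, which was among the largest, so the day differences of these genes are described below without a test. The study measured RNA from rat kidney on 12 arrays after ischaemia-reperfusion injury (IRI), a model of acute kidney injury in which renal blood flow is stopped for a time. There were 4 groups of 3 arrays each: anti-miR-182 treatment at day 7 after injury, placebo at day 7, anti-miR-182 treatment at day 2 and placebo at day 2. Every rat had the injury, and kidneys without injury were not analysed here. Anti-miR-182 is an inhibitor of the microRNA miR-182. Its dose, time and route, what the placebo held, and the strain, sex and age of the rats are not stated in the labels. Each array carries its own animal code, so replicates are taken as separate rats. The labels also call the tissue a biopsy at zero hours, which goes against the days in the sample titles; the titles set the groups.

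Plasminogen is a circulating precursor that tissue-type plasminogen activator (Plat) and urokinase (Plau) cut to plasmin, the protease that dissolves fibrin and also takes part in the breakdown of extracellular matrix. Urokinase acts at the cell surface when it is bound to its receptor, Plaur, and Serpine2 (protease nexin-1) is a serpin that blocks thrombin, urokinase, Plat and plasmin. A2m traps proteases of many classes and is cleared through the receptor Lrp1, and in the rat it is a classical acute-phase protein induced by interleukin-6 through STAT3. In the kidney, urokinase is made by tubular epithelium.

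Of the sequences behind these measurements, the target of the inhibitor is shown first, because it defines the treatment, with its seed (bases 2 to 8) in capitals. It is the mature rat miR-182 of RefSeq, 25 bases long, at chr4:59752249-59752273 on the minus strand of GRCr8.
rno-miR-182: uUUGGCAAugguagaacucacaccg
The promoters of Serpine2, Plau and Plaur follow, because only these members had an entry in the RefSeq promoter table. A2m and Plat had no entry, so no promoter is shown for them. Each runs from 250 bases before to 50 bases after the gene's start (RefSeq, GRCr8), read on the strand of the gene: chr9:88637153-88637452 (minus) for Serpine2, chr15:3511938-3512237 (minus) for Plau and chr1:89181113-89181412 (plus) for Plaur. The start is the one the RefSeq promoter table uses; for Serpine2 it lies inside the outer end of the annotated gene given below, so the window covers less sequence upstream of that end. Capitals mark matches on either strand to the Sp1 motif GGGCGG, which reads CCGCCC on the other strand, or to the AP-1 motif TGANTCA. Adjacent Sp1 matches can share bases.
Serpine2: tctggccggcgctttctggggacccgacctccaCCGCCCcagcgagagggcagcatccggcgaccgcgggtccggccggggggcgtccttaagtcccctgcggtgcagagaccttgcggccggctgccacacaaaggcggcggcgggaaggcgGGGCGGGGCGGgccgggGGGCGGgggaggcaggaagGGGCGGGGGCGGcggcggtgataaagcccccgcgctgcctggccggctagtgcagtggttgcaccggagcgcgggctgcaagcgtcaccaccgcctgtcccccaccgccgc
Plau: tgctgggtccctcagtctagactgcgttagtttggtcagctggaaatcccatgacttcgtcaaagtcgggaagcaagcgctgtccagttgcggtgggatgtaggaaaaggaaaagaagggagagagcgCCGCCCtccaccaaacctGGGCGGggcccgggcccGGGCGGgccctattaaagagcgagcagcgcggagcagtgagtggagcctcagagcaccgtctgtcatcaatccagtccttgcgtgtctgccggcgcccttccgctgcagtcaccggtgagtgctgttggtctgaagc
Plaur: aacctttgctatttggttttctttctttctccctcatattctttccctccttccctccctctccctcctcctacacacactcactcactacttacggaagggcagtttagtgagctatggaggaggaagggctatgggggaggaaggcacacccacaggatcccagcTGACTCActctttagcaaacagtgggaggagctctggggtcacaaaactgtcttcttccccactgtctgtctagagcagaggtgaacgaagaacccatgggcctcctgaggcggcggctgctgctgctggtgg
The Serpine2 window held 6 Sp1 matches and the Plau window 3, against 0 in the Plaur window. At least 1 Sp1 match was present in 33.1% of the 33469 rat promoters of the same length. The Plaur window held 1 AP-1 match, a motif found in 7.33% of promoters, and the other windows held 0. None of the 3 windows held the STAT motif TTCNNNGAA (8.87% of promoters) or the TATA motif TATAAA (14.2% of promoters). These matches describe letters only.

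The deposited values were log2 signals already normalized by robust multi-array averaging, and ran between 1.48 and 13.4 over the rows. Arrays of 1 group correlated at 0.978 or higher, and no pair of arrays shared more than 18 identical values. The median SD of a gene was 0.137 under anti-miR-182 at day 7, 0.146 under placebo at day 7, 0.179 under anti-miR-182 at day 2 and 0.112 under placebo at day 2. The median of all genes was lower at day 7 than at day 2 by 0.21 under anti-miR-182 and by 0.18 under placebo, and on the day 2 arrays 190 rows were empty, so day differences are given beside that shift. Separate processing of the days cannot be told apart from a change between days, also where a day difference passed a test. Kidney markers were present on every array: Umod, of the thick ascending limb, ran between 11.2 and 11.95, and Slc34a1, of the proximal tubule, between 9.28 and 10.5. The row annotated Mir182 was higher, not lower, on the 6 arrays labelled anti-miR-182 (4.93 to 6.57) than on the 6 labelled placebo (3.97 to 4.84), by 1.45 ± 0.17 (SE) over both days with limma's adjusted p of 0.0104. Whether that row reads the mature microRNA is not stated, so it does not check the inhibitor, and treatments are named below as the labels name them.

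A2m (chr4:156570163-156619870, GRCr8) had the lowest levels at day 2 and higher ones at day 7 in both treatments. At day 7 its log2 signal was 7.62, 7.81 and 8.35 on the anti-miR-182 arrays, against 8.80, 9.51 and 8.19 on the placebo arrays. At day 2 it was 5.84, 5.80 and 5.58 on the anti-miR-182 arrays, against 5.73, 5.86 and 6.17 on the placebo arrays. All 6 day 7 arrays lay above all 6 day 2 arrays, while the treatments overlapped within each day. The day 7 arrays averaged 7.93 ± 0.38 with anti-miR-182, against 8.83 ± 0.66 with placebo, and the day 2 arrays averaged 5.74 ± 0.14 with anti-miR-182, against 5.92 ± 0.23 with placebo (SD over 3 arrays, n = 3). Placebo at day 7 thus had the highest mean, anti-miR-182 at day 7 the next, and the day 2 groups the lowest. The means of the day 2 groups differed by less than the SD of the placebo group and by more than that of the anti-miR-182 group.

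The treatment difference in A2m at day 7 was -0.91 ± 0.26 (anti-miR-182 minus placebo, log2, SE; 95% interval -1.47 to -0.34), 1.87-fold lower under anti-miR-182. With limma's moderated test its unadjusted p was 0.00401, the smallest of the 5 genes and the 36th smallest of 18166, and the adjusted p was 0.999. The difference moved with single arrays: it was -0.57 without placebo replicate 2, at 9.51, and -1.23 without placebo replicate 3, at 8.19. The 2 rats per group at day 7 with animal numbers below 90 gave -1.14, a split chosen after seeing the data, and the 1 rat per group above 90 gave -0.45. At day 2 the difference was -0.18 ± 0.26 (interval -0.75 to 0.38, adjusted p = 0.921). The mean over both days was -0.55 ± 0.19 (unadjusted p = 0.0111, adjusted p = 0.888). The difference of the treatment effect between day 7 and day 2 was -0.72 ± 0.37 (interval -1.52 to 0.08, adjusted p = 0.9995), so a change in the effect between days was not shown. The same value is the anti-miR-182 day change minus the placebo day change. Such day changes led to the choice of A2m, so this p-value is not an independent test. The day 7 treatment difference also uses the day 7 arrays that entered that choice.

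**Figure D1:**
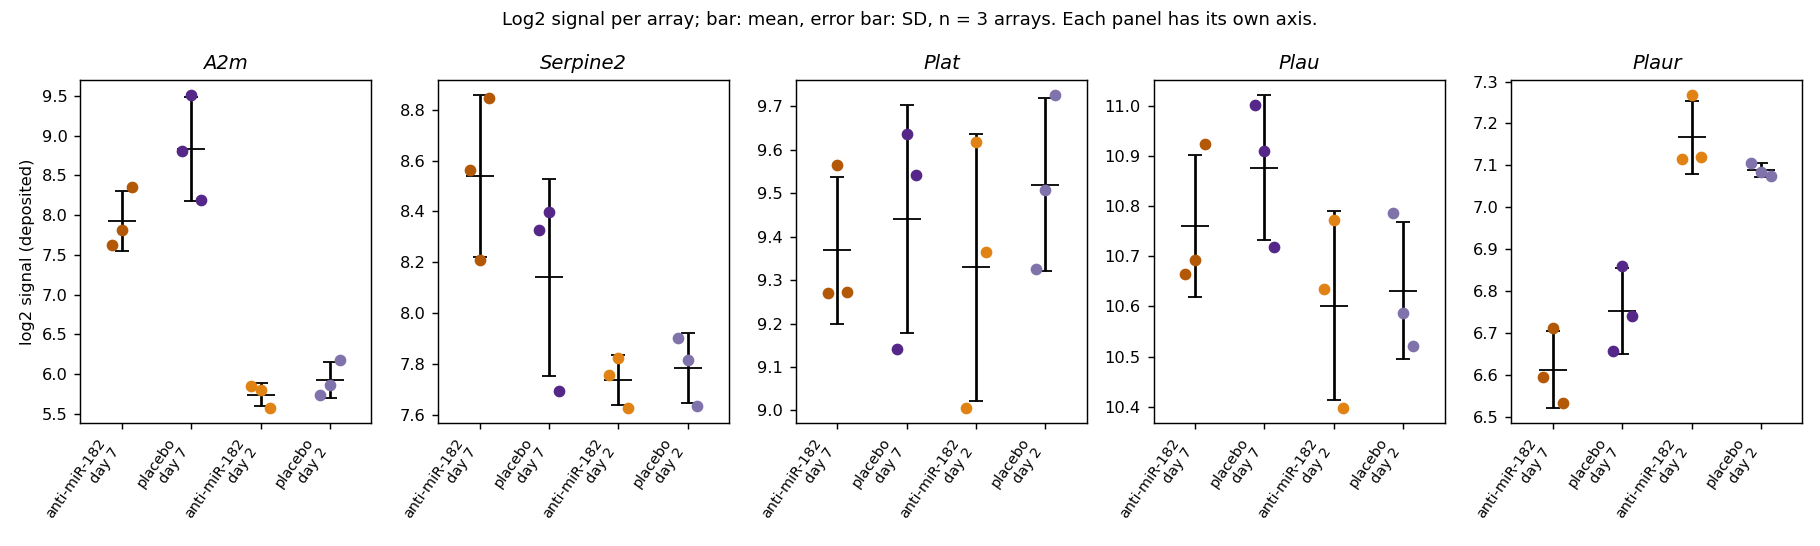
Log2 signal of the 5 genes on each array (points), with the mean (bar) and SD (error bar) of the 3 arrays in each of the 4 groups; each panel has its own axis. The A2m arrays at day 7 sit between 7.62 and 9.51, above all day 2 arrays, and the Plaur arrays at day 7 sit at 6.86 or lower, below all day 2 arrays. Of all genes, 35% under anti-miR-182 and 40% under placebo had day 7 arrays all below those of day 2, and 5.36% and 8.38% all above.

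Serpine2 (chr9:88573138-88637252), the serpin of the set, had higher day 7 levels under anti-miR-182 than at day 2, with less separation under placebo. Its day 7 values were 8.56, 8.21 and 8.84 on anti-miR-182 arrays, against 8.33, 8.40 and 7.69 on placebo arrays. Its day 2 values were 7.76, 7.82 and 7.63 on anti-miR-182 arrays, against 7.90, 7.82 and 7.63 on placebo arrays. Placebo replicate 3 at day 7 was the low array and fell among the day 2 values, whereas all 3 anti-miR-182 arrays at day 7 lay above every day 2 array. The treatment difference at day 7 was 0.40 ± 0.19 (SE; interval -0.0014 to 0.80), with an unadjusted p of 0.0507 and an adjusted p of 0.999 in limma. It was 0.17 without placebo replicate 3 and 0.56 without anti-miR-182 replicate 2. At day 2 the difference was -0.05 ± 0.19 (interval -0.45 to 0.35, adjusted p = 0.974). The effect differed between the days by 0.45 ± 0.26 (unadjusted p = 0.112), which did not pass.

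On the deposited scale the 2 plasminogen activators differed little between groups. Plat (chr16:75943061-76022037) was 9.27, 9.56 and 9.27 on anti-miR-182 arrays at day 7, against 9.14, 9.64 and 9.54 on placebo arrays. At day 2 Plat was 9.01, 9.62 and 9.36 on anti-miR-182 arrays, against 9.33, 9.51 and 9.72 on placebo arrays. All 4 groups overlapped, and the group means lay between 9.33 and 9.52. The treatment difference in Plat was -0.07 ± 0.17 at day 7 (interval -0.44 to 0.30) and -0.19 ± 0.17 at day 2 (interval -0.56 to 0.18), so both intervals included 0.

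Plau (chr15:3505485-3511987) was 10.67, 10.69 and 10.92 on anti-miR-182 arrays at day 7, against 11.002, 10.91 and 10.72 on placebo arrays. At day 2 Plau was 10.63, 10.77 and 10.40 on anti-miR-182 arrays, against 10.79, 10.59 and 10.52 on placebo arrays. The treatments overlapped within both days, and anti-miR-182 replicate 3 at day 2 was the lowest array. The treatment difference in Plau was -0.12 ± 0.13 at day 7 (interval -0.40 to 0.16) and -0.03 ± 0.13 at day 2 (interval -0.31 to 0.25). The day 2 difference changed sign without anti-miR-182 replicate 3 (0.071) and without placebo replicate 1 (0.047).

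Plaur (chr1:89181363-89196308), the urokinase receptor, was the member with lower signals at day 7 in both treatments. At day 7 it was 6.60, 6.71 and 6.53 on anti-miR-182 arrays, against 6.66, 6.86 and 6.74 on placebo arrays. At day 2 it was 7.114, 7.267 and 7.120 on anti-miR-182 arrays, against 7.106, 7.085 and 7.075 on placebo arrays. All 6 day 7 arrays lay below all 6 day 2 arrays, and at day 2 the anti-miR-182 arrays lay above the placebo arrays, whose spread was very small (SD 0.0161). Of all genes, 35% under anti-miR-182 and 40% under placebo had day 7 arrays all below those of day 2. At day 2, 8.06% of all genes had anti-miR-182 arrays all above the placebo arrays. The treatment difference in Plaur was -0.14 ± 0.10 at day 7 (interval -0.36 to 0.08, unadjusted p = 0.196) and 0.08 ± 0.10 at day 2 (interval -0.14 to 0.30), with adjusted p-values above the threshold. Its effect differed between the days by -0.22 ± 0.15 (unadjusted p = 0.156).

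Across the 5 genes, 0 passed limma's adjusted p of 0.05 for treatment at day 7 and 0 at day 2, where 0% of all genes passed in either comparison. At an unadjusted p under 0.05, 1 of 5 (A2m) passed at day 7, where 3.26% of all genes did, and 0 of 5 at day 2, where 6.61% did. For the mean over both days, 0 of 5 passed the adjusted threshold against 0.0055% of all genes, and A2m alone passed unadjusted against 5.27%. For the difference of the effect between days 0 of 5 passed, adjusted or not, where 0% and 3.92% of all genes did. For A2m this difference was not independent of the choice of genes. At day 7 no gene had anti-miR-182 arrays all above or all below the placebo arrays (background 3.5% and 3.75%), and at day 2 Plaur alone had them all above (background 8.06%) and none all below (4.24%). The median treatment difference of the 5 genes was -0.12 at day 7 and -0.05 at day 2, beside -0.00078 and 0.03 for all genes.

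**Figure D2:**
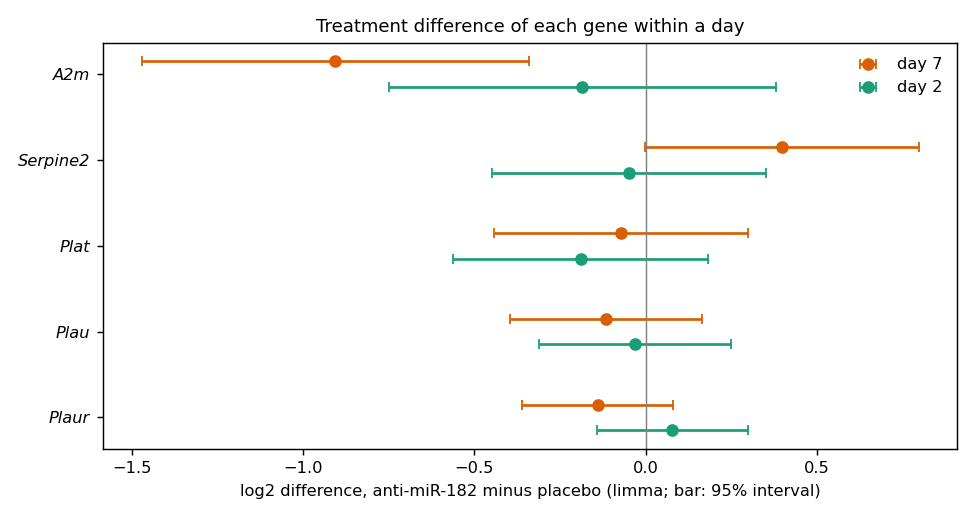
Log2 difference of each gene, anti-miR-182 minus placebo, at day 7 and at day 2 (points, with 95% intervals from limma). The A2m interval at day 7 runs from -1.47 to -0.34, and the 9 other intervals include 0.

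For day 7 against day 2, the values that led to the choice of these genes are described without a test. A2m was higher at day 7 by 2.19 on the log2 scale under anti-miR-182 (4.56-fold), the largest positive difference of 18166 genes, and by 2.91 under placebo (7.52-fold), ranked 2. Relative to the median of all genes these differences were 2.39 and 3.09. Serpine2 was higher at day 7 by 0.80 under anti-miR-182 (1.74-fold, ranked 97) and by 0.36 under placebo, or 1.01 and 0.54 relative to all genes. The placebo value was 0.23 without placebo replicate 2 at day 7, 0.58 without placebo replicate 3 at day 7 and 0.64 after quantile normalization. Plaur was lower at day 7, by -0.55 under anti-miR-182 and by -0.34 under placebo, or -0.35 and -0.16 relative to all genes. Plau differed by 0.16 under anti-miR-182 and by 0.25 under placebo, and Plat by 0.04 and -0.08. Relative to all genes these were 0.37 and 0.42 for Plau and 0.24 and 0.099 for Plat. When 1 array was left out, Plau under anti-miR-182 ran from 0.058 (without replicate 3 at day 2) to 0.25 (without replicate 2 at day 2), and Plat ran from -0.12 to 0.18 under anti-miR-182 (without replicates 1 and 2 at day 2) and from -0.18 to 0.07 under placebo (without replicates 2 and 1 at day 7). Of all genes, 27.5% passed the adjusted threshold between days under anti-miR-182 and 28% under placebo, from which nothing is read for these 5. Under anti-miR-182, 2 of 5 genes (A2m and Serpine2) had day 7 arrays all above those of day 2, where 5.36% of all genes did, and 1 (Plaur) had them all below, where 35% did. Under placebo these counts were 1 (A2m, background 8.38%) and 1 (Plaur, background 40%). The sign for Plat under placebo also turned with the scaling of the arrays, with 0.26 after quantile normalization, and under anti-miR-182 it was -0.16 with the animal number as a covariate and -0.08 with array weights. The same scaling gave 0.58 for Plau and -0.14 for Plaur under placebo.

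**Figure D3:**
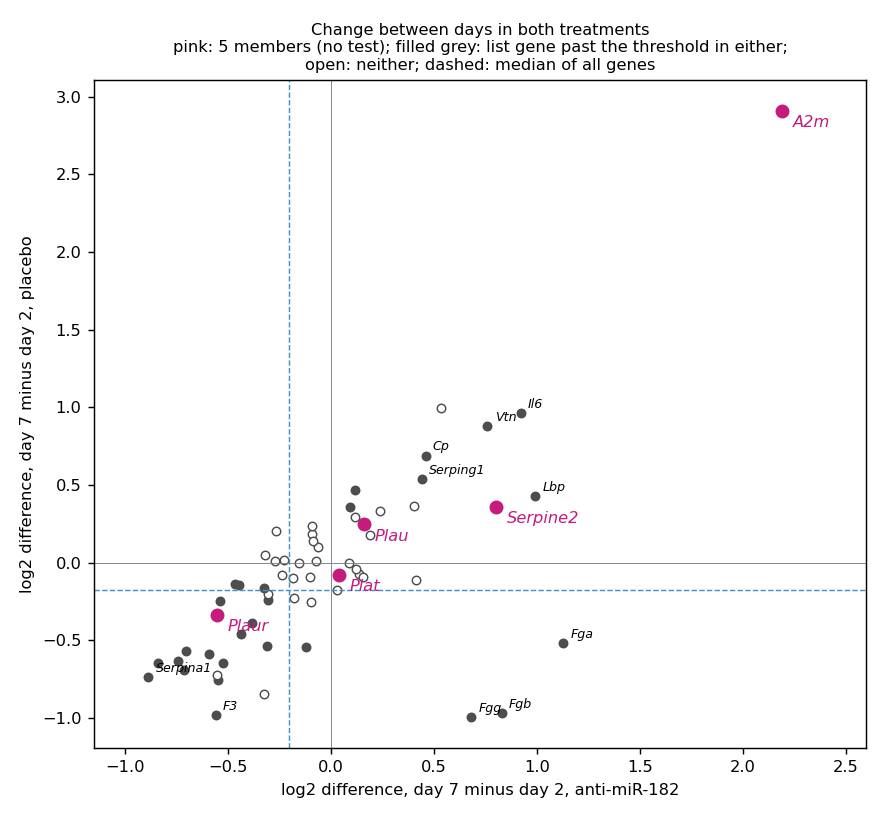
Log2 difference, day 7 minus day 2, under anti-miR-182 (horizontal) and placebo (vertical) for the 5 genes (pink) and the pathway genes (grey; filled where past the adjusted p of 0.05 in either treatment); dashed lines are medians of all genes. A2m lies at 2.19 and 2.91, and Plaur below 0 on both axes.

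Among the other pathway genes, of which 57 of 66 listed were measured, 0 passed for treatment at day 7 and 0 at day 2, and 3 and 8 had an unadjusted p under 0.05 (limma). Of all genes, 3.26% at day 7 and 6.61% at day 2 had such an unadjusted p. Between days under anti-miR-182, 6 of 57 were higher at day 7 and 14 lower; under placebo 6 were higher and 15 lower. The background was 2.68% of all genes higher and 24.9% lower under anti-miR-182, and 4.22% higher and 23.7% lower under placebo. Called in both treatments were 4 higher (Serping1, Vtn, Il6 and Cp) and 9 lower. The share of all called genes that were higher depended on scaling: 9.74% under anti-miR-182 and 15.1% under placebo as deposited, 48.6% and 50.7% after quantile normalization, and 45.6% and 45.8% after centring each array on its median. Under quantile normalization the pathway calls were 8 higher and 5 lower under anti-miR-182, and 9 higher and 5 lower under placebo. The calls held in all 3 scalings were, under anti-miR-182, all 6 higher and 5 lower (Klkb1, Serpinb2, Serpina5, Serpina1 and Mug2), and under placebo all 6 higher and 3 lower (Serpina5, Serpina1 and Mug2). The counts by list below are those of the deposited scaling, and lower calls outside these genes were lost under at least 1 other scaling.

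Of inhibitors of plasmin and its activators, 1 of 10 rose and 4 fell in each treatment between days. Serping1, the C1 inhibitor, was 9.29, 9.36 and 9.40 on anti-miR-182 arrays at day 7, against 9.10, 8.83 and 8.79 at day 2, and did not overlap. Of all genes, 5.36% had day 7 arrays all above those of day 2 under anti-miR-182. Serping1 rose by 0.44 ± 0.12 (adjusted p = 0.0153) under anti-miR-182 and by 0.54 ± 0.12 (adjusted p = 0.00584) under placebo. Serpina5, the protein C inhibitor, was 4.08, 3.98 and 4.16 on anti-miR-182 arrays at day 7, against 5.08, 4.75 and 4.91 at day 2. It differed by -0.84 ± 0.11 under anti-miR-182 and -0.65 ± 0.11 under placebo, and passed in both (adjusted p = 0.000296 and 0.00144). Serpinb2 had a treatment difference of 0.20 ± 0.15 at day 7 and 0.33 ± 0.15 at day 2, and neither passed. Signals of Serpina5 and Serpinb2 were low.

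Of the plasminogen and contact proteases, 0 of 6 rose under either treatment, while 4 of 6 fell under anti-miR-182 and 2 of 6 under placebo (limma). Plasminogen itself (Plg) was 4.93, 5.20 and 4.84 on anti-miR-182 arrays at day 7, against 5.07, 5.23 and 5.47 on placebo arrays. At day 2 Plg was 5.43, 5.21 and 5.30 on anti-miR-182 arrays, against 5.33, 5.25 and 5.05 on placebo arrays. Its treatment difference was -0.27 ± 0.14 at day 7 (unadjusted p = 0.070) and 0.10 ± 0.14 at day 2. The treatments overlapped within both days, while under anti-miR-182 the day 7 arrays all lay below the day 2 arrays, a day difference that did not pass (-0.32 ± 0.14, adjusted p = 0.0896). Under anti-miR-182, 35% of all genes had day 7 arrays all below those of day 2.

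Among receptors and cofactors, 1 of 13 rose and 2 fell under anti-miR-182, and 2 rose and 4 fell under placebo. Vtn, or vitronectin, an adhesive matrix protein that binds Plaur, rose by 0.76 ± 0.20 under anti-miR-182 (adjusted p = 0.0146) and by 0.88 ± 0.20 under placebo (adjusted p = 0.00702). Lrp1, the clearance receptor for A2m and urokinase, had a treatment difference of -0.19 ± 0.14 at day 7 and 0.09 ± 0.14 at day 2. Annexin A2 (Anxa2), which binds plasminogen at cell surfaces together with S100a10, had a treatment difference of -0.72 ± 0.16 at day 2 (unadjusted p = 0.000501, adjusted p = 0.569). S100a10 had one of -0.43 ± 0.19 at day 2, and neither passed.

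No other measured alpha-macroglobulin rose between days. Of 4 in the list, 0 rose and 2 (Mug2 and Mug1l1) fell in both treatments. Mug2, a murinoglobulin, was 3.99, 4.13 and 4.07 on anti-miR-182 arrays at day 7, against 4.96, 4.86 and 4.60 at day 2, a difference of -0.74 ± 0.12 (adjusted p = 0.00100). Under placebo Mug2 differed by -0.64 ± 0.12 (adjusted p = 0.00225). Mug2 signals were low. Mug1l1 missed the threshold after quantile normalization (adjusted p = 0.188 under anti-miR-182 and 0.136 under placebo). Pzp, the gene formerly named A1m, had differences of -0.55 ± 0.33 under anti-miR-182 and -0.73 ± 0.33 under placebo, and neither passed (adjusted p = 0.216 and 0.110). Related alpha-macroglobulin genes have similar sequences, so their rows are uncertain as measures of a single gene.

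Of fibrin and clot genes, 1 of 5 rose and 0 fell under anti-miR-182, and 3 of 5 fell under placebo. Fga, the fibrinogen alpha chain, was 9.94, 9.85 and 10.24 on anti-miR-182 arrays at day 7, against 8.53, 9.65 and 9.38 on placebo arrays. At day 2 Fga was 8.80, 9.18 and 8.67 on anti-miR-182 arrays, against 9.65, 9.75 and 9.71 on placebo arrays. The treatments did not overlap on either day, and they lay in opposite order. Of all genes, 3.5% had anti-miR-182 arrays all above the placebo arrays at day 7, and 4.24% had them all below at day 2. The treatment difference was 0.82 ± 0.23 at day 7 and -0.82 ± 0.23 at day 2, with adjusted p = 0.999 and 0.644, and the difference between these effects had an adjusted p of 0.919. Between days Fga rose by 1.13 ± 0.23 under anti-miR-182 (adjusted p = 0.00359), whereas placebo had -0.52 ± 0.23 (adjusted p = 0.101).

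Of IL-6 family and acute-phase genes, 3 of 19 rose and 2 fell under anti-miR-182, and 3 of 19 rose and 0 fell under placebo. Il6, whose protein induces rat A2m, was 4.97, 4.93 and 5.12 on anti-miR-182 arrays at day 7, against 4.18, 4.14 and 3.93 at day 2. On placebo arrays Il6 was 4.86, 5.23 and 4.81 at day 7, against 3.94, 4.004 and 4.07 at day 2. All day 7 arrays lay above all day 2 arrays, and Il6 rose by 0.92 ± 0.13 under anti-miR-182 (adjusted p = 0.000426) and by 0.96 ± 0.13 under placebo (adjusted p = 0.000301). Of all genes, 5.36% under anti-miR-182 and 8.38% under placebo had day 7 arrays all above those of day 2. Il6 signals were low, and its treatment differences did not pass. Cp, or ceruloplasmin, rose by 0.46 under anti-miR-182 (adjusted p = 0.0405) and by 0.69 under placebo (adjusted p = 0.00639). The 2 genes that fell under anti-miR-182 were Hp (-0.47 ± 0.13, adjusted p = 0.0165) and Orm1 (-0.32 ± 0.10, adjusted p = 0.0342). Neither passed after quantile normalization (adjusted p = 0.114 and 0.316). Stat3 differed by 0.12 under anti-miR-182 and -0.04 under placebo, and Socs3 by 0.16 and -0.09, and none of these passed. A part of Il6 in the A2m difference was not tested.

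The A2m signal moved with markers of other cells. In bulk kidney RNA, more cells of a type and more RNA per cell cannot be told apart. A marker score is the mean log2 signal of a list minus that of all genes. The fibroblast score, over 8 of 8 markers, was 1.21 to 1.26 on the anti-miR-182 arrays at day 7, against 1.49 to 2.31 on the placebo arrays. At day 2 it was 0.537 to 1.003 on the anti-miR-182 arrays, against 0.762 to 1.02 on the placebo arrays. The macrophage score, over 8 of 8 markers, was 0.638 to 0.726 under anti-miR-182 at day 7, against 0.589 to 1.87 under placebo. At day 2 it was 0.119 to 0.368 under anti-miR-182, against 0.212 to 0.271 under placebo. Placebo replicate 2 at day 7, the highest array for A2m, had the highest value of both scores.

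At day 7, 8 of 8 fibroblast and 8 of 8 macrophage markers had a lower mean under anti-miR-182 than under placebo. Of these, 0 of 16 passed. An unadjusted p under 0.05 in limma was reached by 3 and 1, where 3.26% of all genes did. The median difference of all genes was -0.00078. Most markers of other lists were also lower at day 7: 5 of 5 collecting duct, 4 of 5 lymphocyte, 3 of 4 urothelium and 4 of 6 neutrophil. By contrast, 5 of 6 proximal tubule, 3 of 3 podocyte and 4 of 5 hepatocyte markers were higher under anti-miR-182, and the remaining lists were mixed. The macrophage scores of the treatments overlapped, with placebo replicate 1 (0.589) below all 3 anti-miR-182 arrays. Between days, 1 of 8 fibroblast markers (Postn) rose under anti-miR-182 and 2 of 8 (Postn and Col3a1) under placebo, while 2 of 8 macrophage markers rose and 1 fell under anti-miR-182 and 3 of 8 rose under placebo. Of all genes, 2.68% rose and 24.9% fell past the threshold under anti-miR-182, and 4.22% rose and 23.7% fell under placebo. Over the 12 arrays the Pearson correlation of A2m with the fibroblast score was 0.915, and 0.787 after group means were subtracted. With the macrophage score it was 0.856 and 0.666, with the lymphocyte score 0.904 and 0.467, and with the urothelium score 0.616 and 0.700. For the 8 other lists it lay between -0.76 (hepatocyte) and 0.63 (neutrophil), and between -0.44 and 0.48 after group means were subtracted. The lymphocyte score, over 5 of 6 markers, was -0.82 to -0.68 under anti-miR-182 at day 7, against -0.90 to -0.14 under placebo, and -1.37 to -1.11 under anti-miR-182 at day 2, against -1.35 to -1.26 under placebo. Between days 1 of 5 lymphocyte markers rose and 1 fell under anti-miR-182, and 3 rose and 1 fell under placebo. The arrays share treatment, day and normalization, so these are descriptions, and the part of these cells in the A2m difference was not tested. The hepatocyte score was -1.41 to -1.37 under anti-miR-182 at day 7, against -1.44 to -1.31 under placebo, and albumin (Alb) averaged 4.48 to 4.94 in the 4 groups. The hepatocyte score was below 0 on all 12 arrays, as were the neutrophil and lymphocyte scores. Serpina1 is in both the hepatocyte and the inhibitor list. Of the 62 measured markers of 12 cell types, 0 passed for treatment on either day.

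**Figure D4:**
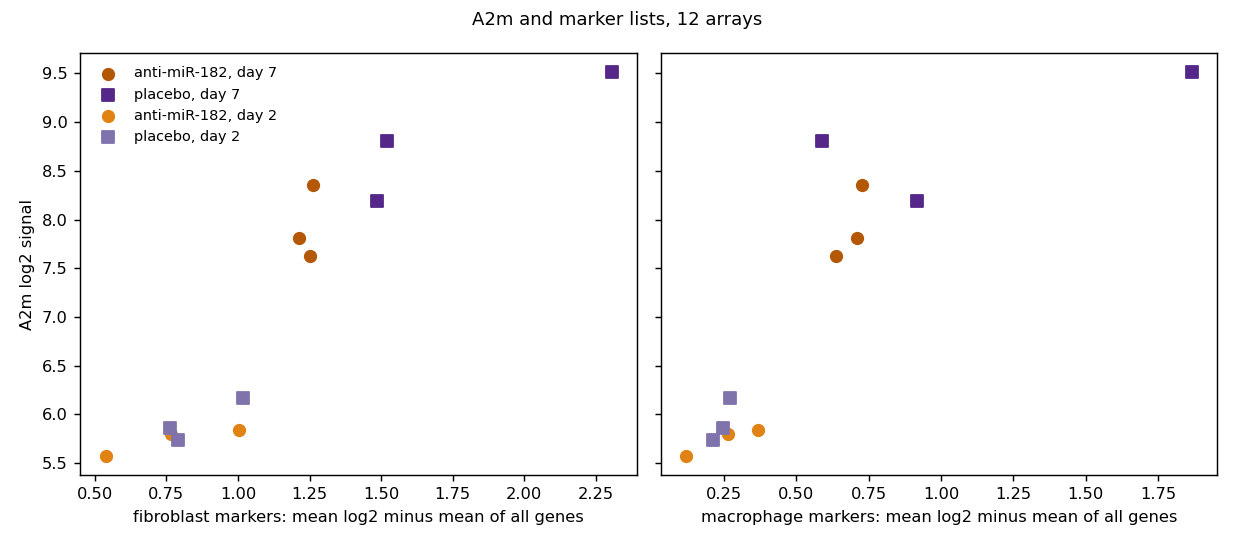
A2m log2 signal (vertical) against the fibroblast score and the macrophage score (horizontal) on the 12 arrays, coloured by group. Placebo replicate 2 at day 7 lies highest on all 3 measures, with a fibroblast score of 2.31 and a macrophage score of 1.87.

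Within the set, A2m correlated over the 12 arrays at 0.71 with Serpine2, 0.71 with Plau and -0.82 with Plaur. After group means were subtracted these became 0.68, 0.44 and 0.17, so the relation with Plaur lay between groups and that with Serpine2 was also present within them. Serpine2 and Plau correlated at 0.68, and 0.74 within groups. Plat correlated with A2m at 0.03. The genes most like A2m over the 12 arrays were Pxdn (Pearson r = 0.974), Srpx2 (0.972), Nav3 (0.970), Ifitm1 (0.970) and Thy1 (0.967). Those most like Serpine2 were Csgalnact1 (0.924), Scgb2b24 (0.907) and Trim30d (0.890), and those most like Plaur were Mis18a (0.984), Armh4 (0.984) and Lamtor2 (0.975). For Plau they were Cd93 (0.937), Tex28 (0.908) and Gpx7 (0.895), and for Plat they were Pbdc1 (0.869), Or6c75 (0.860) and Heatr1 (0.852). All of these share arrays and normalization, and they are the highest of 18166 genes, picked for that.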

How the data were processed

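RNA from rat kidney was measured on 12 arrays, 3 in each of 4 treatment-by-day groups set by the sample titles. Per the labels' protocols, 200 ng of total RNA per sample was amplified and labelled with biotin. The deposited values are log2 signals, and the authors made them by RMA, per the submitters' processing notes; background steps and annotation version are not stated there, and the scale of the values was read from the table. Of 36685 rows, 36495 had values on every array and 19086 were in the platform annotation, which gave 1 symbol to 18511 and several to 575, while 17599 were not listed. Of the rows with 1 symbol, 18394 matched RefSeq by gene ID. For each of the 291 genes with more than 1 row, the row with the highest mean was kept, giving 18166 genes. Array number limits the precision.

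The means of 4 groups were fitted with limma 3.58.1 (R 4.3.3) over all 12 arrays with empirical Bayes moderation, and p-values were adjusted by Benjamini-Hochberg over all 18166 genes at 0.05. Intervals are at 95%. The test was checked on simulated data with independent normal noise for each gene, which held no array-wide shift between days and no outlying array. Python 3.11.15 and matplotlib 3.10.9 drew the figures and read the RefSeq sequences. The members, the 6 pathway lists and the 12 marker lists were chosen with earlier results of these data known. The genes named were the 5 members, Plg and Lrp1 (a further gene of the rule is not reported here), up to 4 genes per pathway list with the smallest p in a comparison, and the genes most like each member by Pearson r; a few list members were named after their values were seen. Alternatives changed the scaling, moderation, array weights, dim-gene filter, row choice, threshold, an animal-number covariate, the days fitted and the arrays left out.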

Additional observations from a re-analysis of the deposited data

How the results depend on the processing

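The treatment differences of the 5 genes were recomputed under 22 settings, giving 415 values. Of these, 407 kept their direction and 0 crossed the adjusted threshold; the smallest adjusted p was 0.387. The cause of the changes below was not tested. The 8 that changed sign were Plau at day 2, 0.0537 with array weights and -0.12 to 0.071 when 1 array was left out, Serpine2 at day 2 (-0.12 to 0.011), Plat at day 7 (-0.22 to 0.026) and the difference of the Plat effect between days (-0.043 to 0.26). When 1 array was left out, the A2m difference was -1.23 to -0.57 at day 7, -0.28 to -0.060 at day 2, -0.71 to -0.38 over both days and -1.04 to -0.38 for the difference between days. Days fitted alone gave no value for the mean or the difference between days. No paired analysis was possible because the labels give animal codes and no replicate numbers shared between groups.

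For treatment, the count of all genes past the threshold at day 2 was 1 (Mir182) at an adjusted p under 0.1, with the animal-number covariate, with array weights and with days fitted alone, and 0 to 1 with 1 array left out. At day 7 it was 2 (C3h15orf48 and Rgs1) with rats numbered below 90 only, and 0 to 3 with 1 array left out. For the mean over both days it was 0 without the dimmest 25% of genes and 0 to 4 with 1 array left out, and for the difference between days 0 to 1.

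Between days, the count under anti-miR-182 was 5002, against 2482 after centring, 2695 after quantile normalization and 3069 (without anti-miR-182 day 2 replicate 2) to 5072 with 1 array left out. Under placebo it was 5080, against 3228 after centring, 2914 after quantile normalization and 3198 (without placebo day 2 replicate 1) to 5773. Quantile normalization gave, under anti-miR-182 and then placebo, 0.34 and 0.26 for Plat, 0.49 and 0.58 for Plau and -0.37 and -0.14 for Plaur, and 1.04 for Serpine2 under anti-miR-182. Centring gave 0.34 and 0.39 for Plau and -0.37 and -0.19 for Plaur. The covariate gave 1.05 for Serpine2 under anti-miR-182 and, under placebo, 0.39 for Plau and -0.42 for Plaur. Every day 2 rat was numbered above 90, so only day 7 arrays set this covariate, with 1 rat per group above 90. A2m stayed between 1.98 and 2.43 under anti-miR-182 and between 2.57 and 3.23 under placebo in every setting.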

Other observations

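After group means were subtracted, which leaves the differences among rats within a group, the genes most like A2m over the 12 arrays were Vcam1 (Pearson r = 0.961), Sympk (0.956), Adam12 (0.955), Gbp7 (0.954) and Srsf7 (0.926). Of these, Vcam1 is an endothelial adhesion molecule and Adam12 a metalloprotease. Adam12 averaged 7.30 under anti-miR-182 and 7.64 under placebo at day 7, against 6.90 and 7.005 at day 2. Vcam1 averaged 7.45 under anti-miR-182 and 7.54 under placebo at day 7, against 7.90 and 7.69 at day 2, so its group means ran opposite to those of A2m between days. The urothelium score was -0.73 to -0.53 under anti-miR-182 at day 7, against -0.83 to 0.22 under placebo, where replicates 1 and 2 were at 0.22 and 0.06 and replicate 3 at -0.83. Placebo replicate 3 was also the lowest array of its group for A2m and Serpine2.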
